A study of Drosophila melanogaster with 3 samples.

Results

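Core promoter peaks without a divergent partner are the binding regions of GFP-tagged eyegone (eyg) whose summit, the position of highest enrichment, lay 0 to 200 bp from the nearest transcription start site (TSS) of a protein-coding gene. Peaks within 1 kb of both TSSs of a divergent gene pair, meaning genes transcribed away from each other whose TSSs lie at most 1 kb apart, were left out. The rule used position only, and it kept 495 of the 2537 peaks in the authors' optimal list on dm6. The other optimal peaks were 567 at divergent promoters, 545 flanking promoters, at more than 200 and up to 1000 bp from a TSS, and 930 over 1 kb from any protein-coding TSS. The data are ChIP-seq, the sequencing of chromatin fragments pulled down with an antibody, from 3 biological replicates of 1 group. All 3 came from the Drosophila melanogaster strain eyg-GFP, which stably carries a transgene for eyg with GFP fused to its C-terminal end. The material was whole embryos of both sexes, 0 to 24 h old, sheared by sonication to 200 to 800 bp and precipitated with an antibody to GFP. There is no second genotype or treatment. The labels point to a control library, not analysed here, so binding by the tag alone was not measured. Whole embryos hold every embryonic cell type, so a peak does not say in which cells the tagged protein was bound. The labels do not name the promoter that drives the transgene.

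The core promoter is the short stretch of DNA around a TSS on which RNA polymerase II and the general transcription factors assemble. In Drosophila, promoters of broadly used genes tend to carry short elements such as the DRE, bound by Dref, and Motif 1, bound by M1BP, while many tightly regulated genes carry a TATA box or an initiator. The eyg gene encodes a Pax-family transcription factor with a homeodomain and a truncated paired domain, known for its part in eye growth and in the salivary ducts. Homeodomains bind short sequences with a TAAT core. The question addressed here is which promoters carried the tagged protein, where around the start site, and with which sequences beside it.

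The following stretches show what DNA lies at these promoters. Each is the 100 bp before the TSS, on the coding strand, read from the RefSeq copy of the dm6 genome at places where no UTR is annotated, and capitals mark copies of a searched motif on either strand. The promoters of CG14100 (chr3L:19590525-19590624, minus strand) and CG31145 (chr3R:23669660-23669759, minus strand) are shown because their peaks had the highest signal among stretches that could be printed, and neither holds a core promoter motif. Those of eEF1gamma (chr3R:29220072-29220171, plus strand), RpS10b (chrX:19597931-19598030, plus strand) and Nsun5 (chr3R:19162301-19162400, minus strand) hold the DRE. The Nsun5 stretch also holds Motif 7.
CG14100: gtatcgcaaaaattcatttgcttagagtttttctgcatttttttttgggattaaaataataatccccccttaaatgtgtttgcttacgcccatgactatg
CG31145: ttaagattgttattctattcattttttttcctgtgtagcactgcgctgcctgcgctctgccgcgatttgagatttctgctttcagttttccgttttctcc
eEF1gamma: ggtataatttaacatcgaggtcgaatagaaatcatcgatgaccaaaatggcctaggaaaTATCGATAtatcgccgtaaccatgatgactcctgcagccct
RpS10b: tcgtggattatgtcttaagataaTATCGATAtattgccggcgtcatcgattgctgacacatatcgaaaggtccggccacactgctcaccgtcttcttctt
Nsun5: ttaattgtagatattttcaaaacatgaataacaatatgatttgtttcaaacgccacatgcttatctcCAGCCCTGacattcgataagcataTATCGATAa

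Further stretches show the other motifs in place. The promoter of Mer (chrX:19693501-19693600, minus strand), which encodes the tumour suppressor Merlin, holds Motif 6 and, next to the TSS, Motif 1. The Mer summit lay 104 bp downstream of the TSS, and neither motif was within 100 bp of it. That of Hpf1 (chr3R:5791779-5791878, plus strand) holds Motif 6. The promoters of gw (chr4:659984-660083, minus strand) and CG32115 (chr3L:12913647-12913746, minus strand) are shown because they hold TAAT-containing sequences of the kind homeodomains bind, TAATTA in gw and a palindrome of TAAT and ATTA with 3 bases between them in CG32115.
Mer: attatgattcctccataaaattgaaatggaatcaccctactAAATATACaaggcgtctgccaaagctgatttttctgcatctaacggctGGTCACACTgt
Hpf1: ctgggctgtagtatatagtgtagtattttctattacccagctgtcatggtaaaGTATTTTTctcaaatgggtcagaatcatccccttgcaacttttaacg
gw: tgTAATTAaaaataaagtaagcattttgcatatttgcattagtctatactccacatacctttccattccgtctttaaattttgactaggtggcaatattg
CG32115: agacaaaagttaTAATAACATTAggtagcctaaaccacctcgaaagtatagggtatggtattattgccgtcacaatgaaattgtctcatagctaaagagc

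Most summits lay just before the TSS. Of the 495 summits, 377 were upstream (76.2%, 95% Wilson interval 72.2% to 79.7%), 4 lay on the TSS base itself and 114 were downstream. The median position was 70 bp upstream, given as -70 on the coding strand, with quartiles at -135 and -3.5. The 2291 regions of the pooled candidate list that met the same position rule but were not in the optimal list were spread nearly evenly over the start site, with 53.3% upstream (51.3% to 55.4%) and a median of -11. The 3 replicates' own summits at these peaks were upstream in 73.8%, 73.3% and 79.0% of cases, a mean of 75.3% ± 3.16 (SD, n = 3). All 3 replicate shares were therefore above the upper limit of the candidates' interval. The summit moved by a median of 50 bp between replicates (quartiles 25 and 83.5, over 491 peaks called in all 3), so the position of a single peak is known to about that distance. Among members farther from the TSS than this median of 50 bp, 81.4% of 354 were upstream (77.0% to 85.1%). The summit moved by at most 50 bp at 50.1% of the 491 peaks, so some of these summits can still change side between replicates. Intervals on shares cover counting error only, since neighbouring promoters are not independent.

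**Figure D1:**
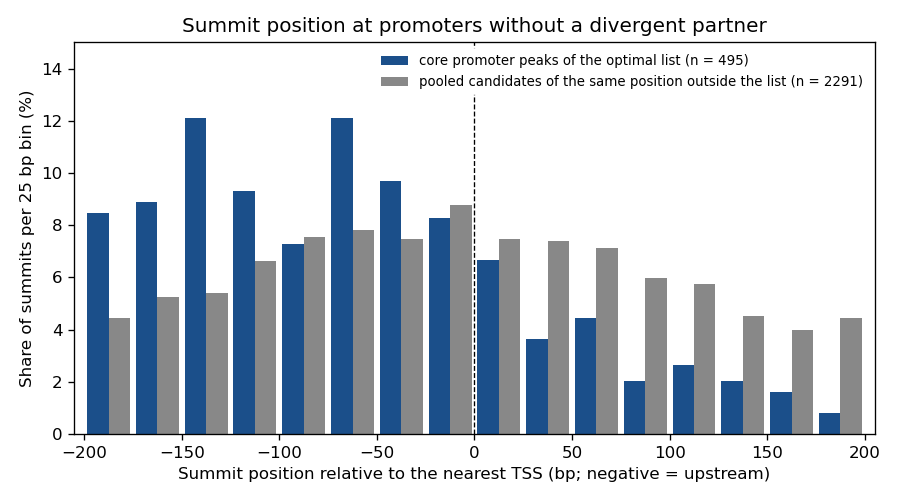
Share of summits in each 25 bp bin (y axis, %) against their position relative to the nearest TSS (x axis, bp, negative upstream), for the core promoter peaks (blue) and for pooled candidates of the same position outside the optimal list (grey). The blue bars are highest in the bins at -150 to -125 and -75 to -50 (12.1% each) and lowest at 175 to 200 (0.808%), while the grey bars lie between 3.97% and 8.77%.

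The share of candidates that reached the optimal list was highest upstream and lowest at and beyond the TSS. That list consists of the pooled candidates of highest signal and holds 10.7% of all 23721 candidates. Among candidates at core promoters without a divergent partner the share was 17.8% (495 of 2786, interval 16.4% to 19.2%), against 21.8% at divergent promoters, 11.7% among promoter-flanking candidates and 6.81% beyond 1 kb. Within the core promoter window, 27.8% of candidates with a summit more than 100 bp upstream were in the list, 20.4% of those 1 to 100 bp upstream and 9.94% of those at or downstream of the TSS. Among the members alone, the median base composition within 100 bp of the summit moved with this order. It was 35.8%, 42.8% and 45.5% GC in the same 3 zones. Its part in the result was not tested.

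The annotation places 218 of the summits between genes (44.0%), all of them upstream, 138 in 5′ UTRs (27.9%), 117 in introns (23.6%), 12 in exons of non-coding genes, 7 in 3′ UTRs and 3 in coding exons. Of the intronic summits, 107 lay upstream of the nearest TSS and 98 lay inside the gene of that TSS. Of the summits in 5′ UTRs, 32 lay upstream of the nearest TSS, in the UTR of a transcript that starts elsewhere.

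The strongest core promoter peak was that of CG14100 at chr3L:19590443-19590801, with a pooled signal of 1782 and its summit 101 bp upstream of the TSS. Its signal was 492.1, 555.8 and 734.6 in replicates 1, 2 and 3, where it ranked 3, 4 and 3 among all calls. The signal is the authors' own value on a scale that the sources used here do not state, and the replicate lists were not brought to a common scale, so values are compared within a list. The next peak was at px, a gene known for wing vein patterning, at chr2R:22514122-22514481. It had a pooled signal of 1508 and replicate signals of 393.3, 521.0 and 585.6, ranking 5 in every replicate. CG31145 followed with 1114 (replicates 331.3, 347.2 and 437.1) and GstE13, a glutathione S-transferase gene, with 899.2 (replicates 219.2, 341.1 and 345.6). The highest core promoter peak of each replicate was the one at CG14100.

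Among the 25 peaks of highest signal, the genes had varied roles. The peak at gish, which encodes a casein kinase 1, had a pooled signal of 872.3 (replicates 225.6, 283.6 and 364.2), and CG18549 had 813.9 (204.7, 274.2 and 332.7). MFS10, a transporter gene of the major facilitator superfamily, had 712.0. The peak at eIF6, whose product keeps the large ribosomal subunit from joining too early, had 662.6, and RpL23A, which encodes a protein of that subunit, had 521.0. Alg3, a mannosyltransferase gene of N-glycan synthesis, had 658.3, and TRAM had 501.1. The TRAM protein acts at the translocation channel of the endoplasmic reticulum. The glycolytic gene Gapdh2 had 525.6, and yps, which encodes an RNA-binding Y-box protein, had 478.5. Others were Hpf1 (636.7), a partner of poly(ADP-ribose) polymerase, Ptpmeg2 (481.4), a tyrosine phosphatase, gro (480.3), the Groucho corepressor, and moody (484.4), a receptor of the glia that form the blood-brain barrier. The remaining genes of the 25 were CG13921, CG1635, CG1607, CG31431, nebu, CG5335, SLC5A11 and brwl, with pooled signals between 425.2 and 729.8. Of the 25 summits, 24 lay upstream of their TSS and the one at GstE13 lay 53 bp downstream, in the 5′ UTR.

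**Figure D2:**
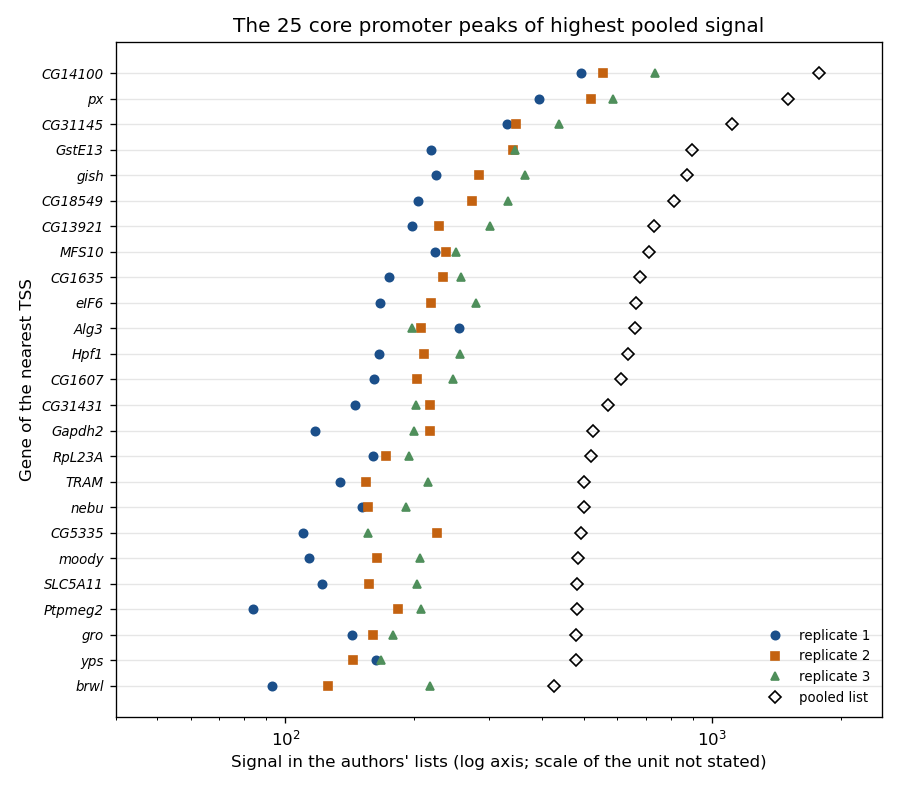
Signal (x axis, log scale, unit not stated) of the 25 core promoter peaks of highest pooled signal (y axis, gene of the nearest TSS), with filled symbols for the 3 replicate lists and open diamonds for the pooled list. Replicate 3 lies above replicate 1 at all but Alg3, where replicate 1 is highest at 255.4 against 207.4 and 198.2 in replicates 2 and 3.

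At the other end, the 5 weakest peaks lay at Cad86C (108.4), a cadherin gene, Gs1 (108.6), a glutamine synthetase, EDTP (108.9), a phosphoinositide phosphatase, CG3420 (109.0) and Srrm1 (109.1), a splicing factor. Cad86C ranked 1726 in replicate 1, 2016 in replicate 2 and 4574 in replicate 3, and Gs1 had no call in replicate 1. No call held the summit at 4 members in all, at Gs1, Prps and Sobp in replicate 1 and at CG2017 in replicate 2. The 5 members outside the 2537 highest calls of every replicate were at CG10939, U2A, MYPT-75D, rho and CG18135. These genes, like REPTOR below, were singled out after their values were seen. The summit at REPTOR, which encodes a transcription factor downstream of TOR, had replicate signals of 20.6, 59.4 and 112.6, the widest spread on the log2 scale among the members (SD 1.24).

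The members were ranked about as well by the replicates as the other optimal peaks. In replicates 1, 2 and 3, 81.0%, 80.2% and 79.8% of members were among the 2537 highest calls (mean 80.3% ± 0.617, SD, n = 3), where the same share over all optimal peaks was 77.0%, 82.1% and 83.4%. Thus members were above the whole list in replicate 1 and below it in replicates 2 and 3. In all 3 replicates at once, 284 members were among these calls (57.4%), against 58.0% of the other optimal peaks and 57.9% of the whole list. Across members, Spearman's rank correlation of signal was 0.66 between replicates 1 and 2, 0.61 between 1 and 3 and 0.68 between 2 and 3, against 0.64, 0.66 and 0.68 across the other optimal peaks. These correlations are over peaks of the same libraries and are given as descriptions.

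Within the optimal list, the median signal of the members differed little from that of other peak classes. Every class starts at the same pooled signal (lowest 108.3 to 108.4), so similar medians are partly built in. Over all pooled candidates the median signals were 63.0 at core promoters, 65.7 at divergent promoters, 52.4 at flanking positions and 48.4 beyond 1 kb. The members' median was 45.7, 56.1 and 59.7 in replicates 1, 2 and 3. Divergent promoter peaks had medians of 47.1, 57.1 and 65.9, promoter-flanking peaks had 47.1, 59.8 and 66.0, and peaks beyond 1 kb had 43.3, 55.6 and 58.1. The members were lower than divergent promoter peaks in 3 of 3 replicates, with a mean difference in log2 signal of -0.071 ± 0.062 (SD, n = 3, exact two-sided sign-flip permutation test, p = 0.25). They were lower than promoter-flanking peaks in 3 of 3 (-0.094 ± 0.049, exact p = 0.25) and higher than the peaks beyond 1 kb in 3 of 3 (0.044 ± 0.032, exact p = 0.25). With 3 replicates the smallest p this test can give is 0.25, so none of the differences could pass a threshold of 0.05. With members limited to 100 bp from a TSS, the first became -0.16, the second -0.18 and the last changed sign (-0.041).

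**Figure D3:**
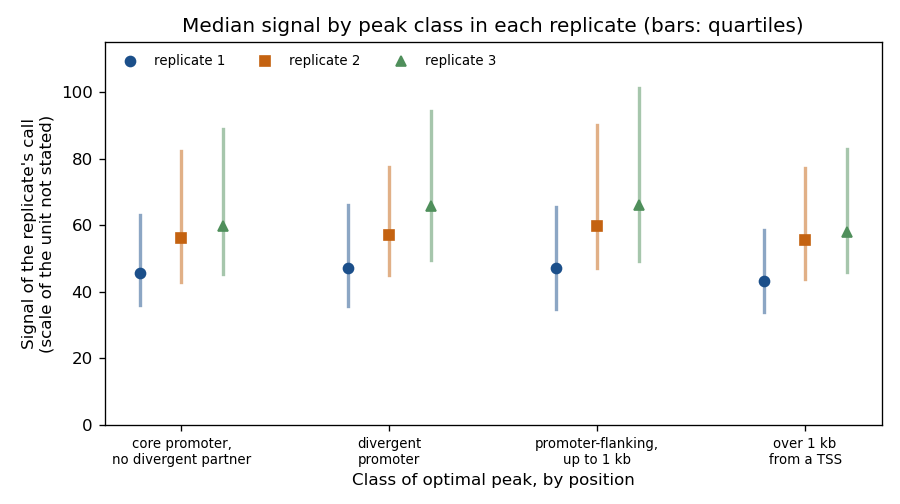
Median signal of the call that holds each summit (y axis, unit not stated) in the 4 position classes of optimal peaks (x axis), with 1 symbol per replicate and bars for the quartiles over peaks. The classes overlap over most of their range in every replicate, and replicate 1 is lowest in each class.

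Among the members, upstream summits had the higher signal. The median pooled signal was 160.0 for the 377 upstream summits and 134.1 for the 114 downstream ones. In replicates 1, 2 and 3 the medians were 45.8, 57.4 and 64.5 upstream, against 44.7, 49.98 and 45.8 downstream. The difference in log2 signal was 0.035, 0.20 and 0.49, positive in 3 of 3 replicates but very unequal (mean 0.24 ± 0.23, SD, n = 3, exact sign-flip permutation p = 0.25, the smallest possible). In replicate 1 the sides hardly differed. Split by zone, the median pooled signal was 174.6 for the 192 summits more than 100 bp upstream, 146.5 for the 185 summits 1 to 100 bp upstream and 134.1 for the 118 summits at or downstream of the TSS. The 44 peaks narrower than the full width of 424 bp had a median pooled signal of 480.8, against 147.1 for the 451 of full width.

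The motifs searched within 100 bp of each summit, on both strands, were the DRE (TATCGATA), Motif 1 (GGTCACACT), the E box known as Motif 5 (CAGCTGTT), Motif 6 (GTATATTT or GTATTTTT) and Motif 7 (CAGCNCTA, CAGCNCTG, CATCNCTA or CATCNCTG). Others were the GAGA element (GAGAG), the Zelda site (CAGGTAG), the E box CACGTG, the homeodomain core (TAATTA), its palindromes, TAAT and ATTA with 2 or 3 bases between them, and the repeat CACACACA. None of these strings contains another, though copies can overlap by a few bases. A match says that the letters are there, not that a factor was bound.

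Core promoter motifs were frequent at the members. At least 1 of the 5 was found at 185 summits (37.4%, interval 33.2% to 41.7%), against 13.3% of flanks, equal in summed length and centred 500 bp to either side, 27.6% of candidates of the same position outside the list, 53.1% of divergent promoter peaks and 15.6% of peaks beyond 1 kb. Motif 7 was the most frequent, at 95 summits (19.2%), against 5.45% of flanks, 13.9% of the candidates and 32.5% of divergent promoter peaks. The DRE was at 33 summits (6.67%), against 1.82% of flanks, 5.19% of the candidates, 12.0% of divergent promoter peaks and 0.323% of peaks beyond 1 kb. Motif 1 was at 24 summits (4.85%), against 0.404% of flanks and 3.10% of the candidates, and at 4.06% of divergent promoter peaks. The E box CAGCTGTT was at 34 summits (6.87%), against 2.02% of flanks, 4.36% of the candidates, 7.58% of divergent promoter peaks and 2.26% of peaks beyond 1 kb. Motif 6 was at 43 (8.69%), against 4.44% of flanks, 6.20% of the candidates, 10.6% of divergent promoter peaks and 7.96% of peaks beyond 1 kb. For both motifs the intervals of members and candidates overlapped, and for Motif 6 those of members and peaks beyond 1 kb did too. The members thus lay between distal peaks and divergent promoter peaks in their shares of the DRE and Motif 7. For Motif 1 the intervals of members (3.28% to 7.11%) and divergent promoter peaks (2.72% to 6.01%) overlapped. The highest member with the DRE and with CAGCTGTT was the peak at Alg3 (658.3), with Motif 1 that at RpL37A (266.9), with Motif 6 and GAGAG that at px (1508), and with Motif 7 and CACACACA that at TRAM (501.1).

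These motifs are features of promoters in general, so the same windows were read at start sites. Within 100 bp of the members' TSSs the DRE was found at 7.88%, Motif 1 at 6.06%, the E box CAGCTGTT at 8.28%, Motif 6 at 8.48% and Motif 7 at 20%. At all 13217 TSSs that are in no divergent pair the shares were 3.84%, 2.61%, 3.69%, 6.10% and 10.2%. All 5 shares were thus higher at the members, with intervals that overlapped for Motif 6 and no other. The TATA box, searched as TATAAA starting 40 to 20 bp before the TSS, was at 2.83% of the members' TSSs (interval 1.70% to 4.70%) and at 7.88% of all these TSSs (7.44% to 8.36%). The 14 members with it include Hsp27 (366.9), cact (315.8), the Cactus inhibitor of the Toll pathway, and Thor (215.2), a translation repressor. An initiator with TCAGT or TCATT near the TSS was at 18.0% of the members' TSSs and 17.3% of all.

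The motifs differed in their place in the promoter. The DRE had a median position of -50 from the TSS and was upstream in 32 of 33 members. Motif 1 had a median position of -6.5, CAGCTGTT of -26, Motif 7 of -40 and Motif 6 of -107. The median distance from summit to motif was 41 bp for the DRE, 45 bp for Motif 7, 50 bp for CAGCTGTT, 52 bp for Motif 6 and 65 bp for Motif 1. Only copies within 100 bp of the summit were searched, so these distances are bounded and do not show that the motifs centre on the summit. The positions from the TSS likewise depend on where the summits lay, which was mostly upstream. Of the summits 1 to 100 bp upstream of the TSS, 11.9% had a DRE and 29.2% a Motif 7 nearby. More than 100 bp upstream the shares were 5.73% and 13.0%. At or downstream of the TSS, 13.6% of summits had a Motif 7 and 0 of 118 had a DRE, which allows a share of up to 2.54% (3 counts). Windows at summits well downstream do not reach the usual DRE place (quartiles -74 and -33 from the TSS). This 0 is therefore partly set by the search, and the shares by zone depend on the stretch covered.

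Members with a core promoter motif had a slightly lower median signal in 3 of 3 replicates. The median log2 signal of the 185 members with 1 of the 5 motifs minus that of the 310 without was -0.061, -0.14 and -0.051 in replicates 1, 2 and 3 (mean -0.083 ± 0.046, SD, n = 3, exact sign-flip permutation p = 0.25). Of 8 motifs held by at least 20 members, 0 went with higher signal in all 3 replicates and 4 went with lower signal in all 3, namely GGTCACACT, CAGCTGTT, GAGAG and CACACACA. Each of the 4 had an exact p of 0.25, the smallest possible, and an adjusted p of 0.5 over the 8 motifs. For GGTCACACT the mean difference was -0.18 ± 0.033. The remaining motifs, the DRE among them (0.021 ± 0.12), changed sign between replicates. The direction depended on the summary. With means in place of medians, 2 of the 8 motifs went with higher signal in all 3 replicates and 5 with lower, and with a window of 50 bp, 1 of 4 motifs went with higher signal and 1 with lower.

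The homeodomain core was about as frequent at these summits as in their flanks. TAATTA was within 100 bp of 60 summits (12.1%, interval 9.53% to 15.3%), against 12.7% of flanks and 13.2% of peaks beyond 1 kb. It was less frequent at candidates of the same position outside the list (7.90%, 6.87% to 9.08%) and more frequent at divergent promoter peaks (17.5%). Around the members' TSSs it was at 6.26%, against 8.35% around all TSSs in no divergent pair. TAATTA contains no G or C, and its share among members moved with base composition, with 20.8% of the summits more than 100 bp upstream, 8.11% of those 1 to 100 bp upstream and 4.24% of those at or downstream of the TSS. The median GC content around members' summits was 40.8%, against 44.3% for the candidates and 37.3% for divergent promoter peaks, and its part in these shares was not tested. The palindromes with 2 and 3 bases between TAAT and ATTA were each at 7 summits (1.41%), against 1.82% and 1.41% of flanks. The highest peaks with TAATTA were at CG18549 (813.9) and CG1635 (678.8). The highest with a palindrome were at brwl (425.2) and CG32115 (258.3).

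Among the other sequences, GAGAG was at 28.7% of members' summits, against 23.0% of flanks, 31.9% of the candidates and 15.5% of divergent promoter peaks. Around the members' TSSs it was at 35.8% (interval 31.7% to 40.1%), against 28.0% (27.3% to 28.8%) around all TSSs in no divergent pair. CACACACA was at 5.25%, against 8.48% of flanks and 1.59% of divergent promoter peaks. CACGTG was at 3.03% and CAGGTAG at 1.21%, against 2.83% and 1.21% of flanks. The highest peaks with CACGTG and CAGGTAG were at fok (376.8) and CHES-1-like (279.0).

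**Figure D4:**
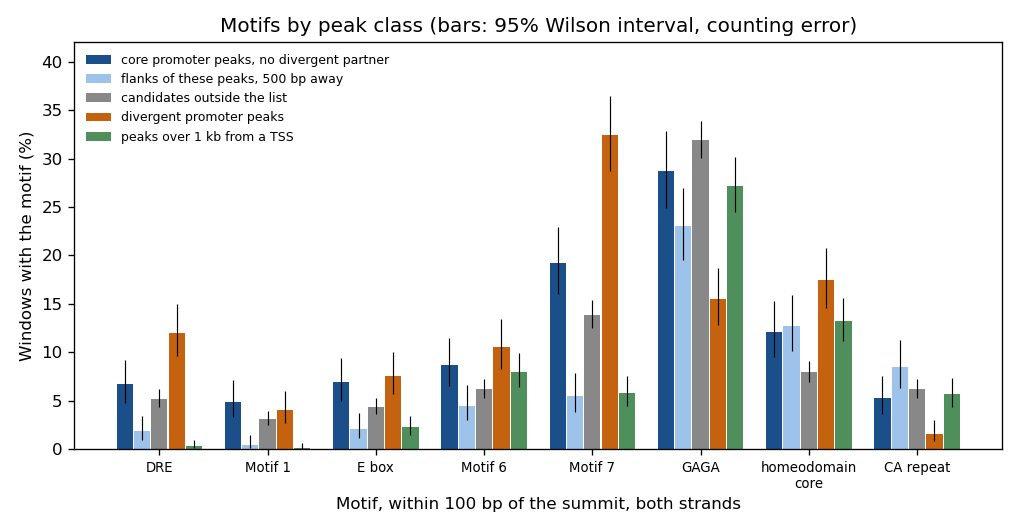
Share of windows with each motif (y axis, %) at core promoter peaks without a divergent partner, at their flanks, at candidates of the same position outside the list, at divergent promoter peaks and at peaks over 1 kb from a TSS (bars from left to right, with 95% Wilson intervals). Motif 7 is at 19.2% of the core promoter peaks and 5.45% of their flanks, while the homeodomain core is at 12.1% and 12.7%.

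The members lay at promoters of 483 genes, which is 5% of the 9655 protein-coding genes that have a TSS in no divergent pair. Genes with several promoters carried a member more often. Of genes with 1 TSS, 2.92% had a member (198 of 6791), of genes with 2 TSSs 7.61% and of genes with 3 or more 14.1% (146 of 1037). Counted per TSS, the shares were 2.93%, 4.30% and 4.68%. Genes with a member had a median span of 5413 bp, against 2288 bp over all these genes. The member was at the most upstream TSS of its gene in 67.3% of cases, and 67.3% of all these TSSs are in that place. More than 1 member lay at 10 genes, with 3 each at Ptpmeg2 (481.4, 396.7 and 270.7) and at shot (281.1, 161.1 and 110.5), which encodes a linker of actin and microtubules.

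Another gene on the same strand lay just upstream of the members more often than of other TSSs. Within 1 kb upstream of the TSS, 47.1% of members had another gene on the same strand and none on the opposite strand, against 34.2% of all TSSs in no divergent pair. These background shares are over 13423 pairs of a TSS and its gene, since a TSS shared by several genes was counted for each. The rule bears on this comparison, because it left out peaks near both TSSs of a divergent pair. The candidates below met the same rule. A protein-coding gene on the same strand ended within 1 kb before the TSS at 43.4% of members (interval 39.1% to 47.8%), at 34.9% of candidates of the same position outside the list (33.0% to 36.9%) and at 30.8% of the 13423 pairs, at median gaps of 355, 336.5 and 319 bp. At 467 members no other protein-coding gene had a TSS within 1 kb. The TSSs of non-coding genes were not considered, and 12 of the 495 summits lay in exons of such genes.

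By chromosome arm, between 4.66% (X) and 5.16% (2L) of eligible genes on the large arms had a member, and 3 of 66 did on the small chromosome 4. Those 3 were gw (223.8), which acts in gene silencing by microRNAs, RpS3A (208.3) and CG31999 (148.0). Replicate signals at gw were 61.7, 80.9 and 81.0.

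Genes of the cytoplasmic ribosome carried core promoter peaks more often than any of the other 24 gene lists. Of 40 eligible ribosomal genes, 19 had one (47.5%, interval 32.9% to 62.5%), where the share over all eligible genes was 5%. The strongest were RpL23A (521.0, replicates 160.8, 171.9 and 194.5), RpS10b (390.6, replicates 144.6, 129.7 and 124.3), RpS4 (362.0, replicates 118.5, 133.4 and 109.8) and RpL11 (335.1, replicates 102.3, 134.0 and 98.6). The weakest was RpL12 (116.8, replicates 32.0, 33.3 and 48.5). The 19 had a median pooled signal of 212.4, against 151.8 for the 476 members outside the list. Their medians in replicates 1, 2 and 3 were 60.1, 78.0 and 75.7, against 45.2, 55.2 and 58.7 for the members outside the list, so they were higher in 3 of 3. The symbol match missed a further ribosomal gene with a member, RpL37-1 (167.5). With a match that also takes symbols ending in a hyphen and a number, chosen after the data were examined, 20 of 42 eligible genes had a member (47.6%, 33.4% to 62.3%), at a median pooled signal of 210.3 against 151.8 for the 475 members outside. Of the 19 summits, 12 were upstream, with a median position of -26, and 12 had a core promoter motif nearby, 7 of them Motif 7, 4 Motif 1, 4 Motif 6, 3 the DRE and 0 CAGCTGTT. The pyrimidine-rich initiator known from ribosomal genes, searched as CTTT at the TSS, was found at RpS27A and RpS30 and at 8 other members. In all it was at 2.02% of the members' TSSs and at 2.23% of all TSSs in no divergent pair, and at 6 of the 62 eligible ribosomal TSSs (9.68%). An exact string at the annotated TSS can miss such an initiator, so these shares do not show that it is absent. RpS14b has a near-identical neighbouring copy in the genome, so its signal (130.0) is uncertain. Of all 91 genes of the list, eligible or not, 47 were near a divergent promoter peak of the optimal list. The high share is thus not particular to promoters without a divergent partner. The list was known to be high before it was counted here and is not independent evidence.

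Other lists of broadly used genes were mixed. Translation factors had members at 6 of 31 eligible genes (19.4%, interval 9.19% to 36.3%), led by eIF6 (662.6), eEF1gamma (407.1) and eEF1alpha1 (162.2). The Mediator, TFIID and RNA polymerase II list had 3 of 17 (17.6%), Polr2F (262.3), a subunit of the polymerase, Taf4 (236.3) and MED4 (209.0). Rab GTPases and vesicle coats had 3 of 22, deltaCOP (264.2), Rab1 (111.9) and gammaCOP (111.1). Insulator and core promoter factors had 2 of 10, Trl (207.2), which encodes the GAGA factor, and pita (113.4), a zinc-finger insulator protein. Heat shock genes and chaperones had 2 of 20, Hsp27 (366.9) and Hsp26 (193.2), the respiratory chain 2 of 48, ATPsynC (136.8) and ATPsynO (115.5), and cell cycle genes 1 of 18, Dp (239.4), the partner of E2F. No member was found at the eligible genes, 15 of the mitochondrial ribosome, 26 of the proteasome, 11 for aminoacyl-tRNA synthetases and 20 of the vacuolar ATPase. Counts of 0 allow shares of up to 20%, 11.5%, 27.3% and 15% (3 counts), which include the 5% of all eligible genes. Of all 73, 48, 33 and 33 genes of these lists, 13, 5, 5 and 7 were near a divergent promoter peak of the optimal list. The zeros are thus for the present class of peaks only.

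No member was found at 154 chemosensory receptor genes, 76 cytochrome P450 genes, 67 CPR cuticle genes or 41 odorant binding protein genes. These families are mostly used in particular tissues. The upper Wilson limits were 2.43%, 4.81%, 5.42% and 8.57%, so those of the chemosensory receptor and cytochrome P450 genes lay below the 5% of all eligible genes and those of the other families did not. At 3 counts the same zeros allow shares of up to 1.95%, 3.95%, 4.48% and 7.32%, so the CPR genes lie below 5% by this limit only. The share also depends on the number of TSSs, at 2.92% for genes with 1 TSS. Against that share only the chemosensory receptor limits were lower. The number of TSSs per gene in these families was not compared.

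Lists of developmental regulators were small, and their shares are known only roughly. No member lay at the 8 Hox genes, the 10 Pax genes or the 14 retinal determination genes, lists too small for a share of 5% to be told from 0 (limits of 37.5%, 30% and 21.4%). The peak at the eyg promoter itself lay just outside the rule, 203 bp upstream of the TSS. It had a pooled signal of 177.0 and replicate signals of 63.6, 58.4 and 52.4. Another optimal peak with eyg as its nearest gene lay 10536 bp downstream of the TSS (pooled signal 139.3, replicates 46.5, 41.6 and 45.8). No optimal peak had toe, the paralog of eyg, as its nearest gene. The segmentation list had 1 of 22, nkd (120.6), which restrains Wingless signalling. Of the signalling pathways, the EGF receptor and Dpp lists each had members at 2 of 12 eligible genes (16.7%, interval 4.70% to 44.8%), the Wingless list at 2 of 16 (12.5%, 3.50% to 36.0%) and the Notch list at 1 of 10 (10%, 1.79% to 40.4%). The 5% of all eligible genes lies inside the intervals of the Dpp, EGF receptor, Wingless and Notch lists. In the EGF receptor pathway the members were aop (132.5), a repressor, and rho (113.3), the protease that releases the ligand. In the Wingless pathway they were arr (131.7), a co-receptor, and nkd, and in the Dpp pathway shn (174.9), a zinc-finger cofactor, and bi (119.5), a target gene. The Notch pathway had numb (162.2), an inhibitor. The shn summit had replicate signals of 106.1, 184.5 and 35.1, with the lowest in replicate 3. Where several calls of a replicate held a summit, the highest was taken. A stronger neighbouring call may therefore have set some of the shn values, which was not tested. Of 23 eligible markers of muscle, neurons, glia, hemocytes, trachea, germline, fat body and gut, 1 had a member, moody (replicates 113.4, 163.7 and 207.1).

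**Figure D5:**
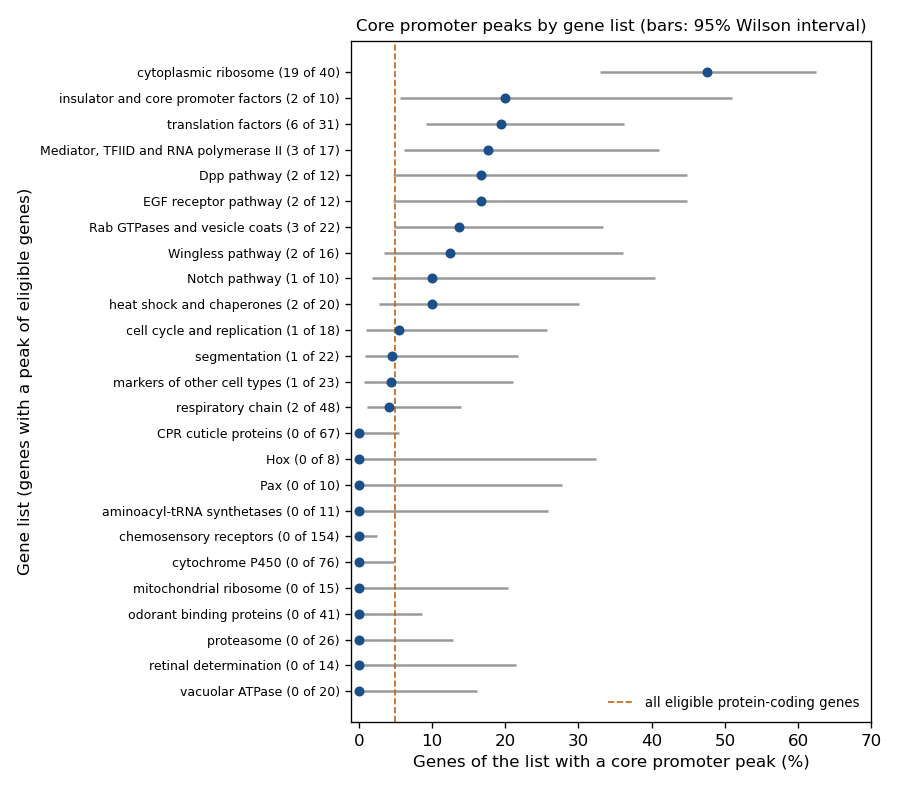
Share of eligible genes with a core promoter peak (x axis, %) in 25 gene lists (y axis, with counts), with 95% Wilson intervals, and the share over all eligible protein-coding genes as a dashed line at 5%. The interval of the cytoplasmic ribosome list lies farthest above the line, and 11 lists are at 0.

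The distance limit of 200 bp cuts through a continuous range. Just inside it were the peaks at px and Abca3 (199 bp, pooled signals 1508 and 155.6) and at Dh31-R, Kah and CG18476 (198 bp, 278.0, 243.6 and 116.0). Just outside were those at Rap1 and CG18622 (202 bp, 136.1 and 393.0), at eyg and CG42375 (203 bp, 177.0 and 151.8) and, of 2 peaks at 204 bp, at CngA (194.4).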

How the data were processed

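ChIP-seq was measured in 3 biological replicates. The authors called regions in each replicate and in their pool against a control, per the labels and the deposited listings, and derived the optimal list by the irreproducible discovery rate. For the aligner and the peak caller, name and version were not given in the sources used here. The deposited lists give the authors' signal, whose scale is not stated, and a −log10 q-value per region. Read counts were not among the values, so library depth is unknown.

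The dm6 lists were used, holding 23721 pooled and 30000, 30000 and 24609 replicate regions. Classes were computed with Python 3.11.15, NumPy 2.4.6 and SciPy 1.17.1, with TSSs of protein-coding genes from Ensembl release 115 (BDGP6.54) and sequence from RefSeq. Of 30593 annotated start codons, 99.8% read ATG in that sequence. A replicate's value at a peak is the signal of its call that holds the optimal summit, or the highest such signal where several calls hold it. A weak peak beside a strong one can therefore take the neighbour's value. At CG18622, the member and a peak just outside the distance limit had the same values in replicates 1 and 2 (98.5 and 122.8). Overlapping annotations were resolved in favour of coding exons, then UTRs (5′ before 3′), exons of non-coding genes and introns. Classes were compared by differences of median log2 signal within each replicate, with an exact two-sided sign-flip permutation test over the 3 replicates and Benjamini-Hochberg adjustment over motifs. Peaks are not replicates, and shares carry 95% Wilson intervals. The class assignment and the motif search were tested on simulated data, where 100% of 2000 placed peaks and 100% of 2400 placed motifs were recovered. The simulated places were far apart, each with a single TSS or a single divergent pair, and peaks were drawn within the same distance limits. The check therefore shows that the code follows the rule, not how it handles crowded or overlapping TSSs.

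Named genes are the nearest to the 25 highest and 5 lowest members, the highest in each replicate, up to 3 per list, those at the distance limit, eyg, toe, chromosome 4 members and the highest with each motif. Further genes were chosen after their values were seen. Lists were matched by symbol. The members and lists were chosen with earlier results of these data known. The counts by zone, TSS number and neighbouring gene ends were added after the data were examined. Alternatives changed the annotation, distances, windows, list length, overlap, summary and replicates.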

Additional observations from a re-analysis of the deposited data

How the results depend on the processing

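No paired analysis was possible because the samples form a single group; classes of peaks were compared within each replicate throughout. Among 58 alternatives for the main results, 45 kept their direction (differences of signal), stayed within the interval or spread of the main value (shares) or stayed within 1.5 times (counts), 12 moved and 1 reversed. Of 49 for single motifs and the ribosomal list, 34 stayed within the interval. The TSSs of RefSeq, 19581 against 19607 from Ensembl, gave the same 495 peaks. Keeping only coding transcripts left all 19607 TSSs, so that alternative could not differ, though it is counted among the 45. With a limit of 100 bp there were 269 peaks, 68.8% of them upstream, at 2.74% of eligible genes, the difference from peaks beyond 1 kb reversed to -0.041, and those from divergent promoter and promoter-flanking peaks were -0.16 and -0.18, against -0.071 and -0.094 at 200 bp. With 300 bp 6.35% of genes had a peak. In the 248 members of highest signal 83.1% were upstream, and they lay at 2.53% of genes. Recovery among the highest calls was 49.2% with 0.5 times N, 95.6% with 2 times N and 76.7% with 50% reciprocal overlap, N being the length of the optimal list. A window of 50 bp left a core promoter motif at 19.6% of summits. The number of motifs whose signal difference had the same sign in every replicate was 4 of 8, and 2 of 4 with the window of 50 bp (1 higher, 1 lower) and 7 of 8 with means (2 higher, 5 lower). This count of either direction was chosen after the data were examined. Without 1 replicate it was 5 to 6, the share upstream 73.5% to 76.4% and recovery 80.0% to 80.6%. The log2 differences were then -0.093 to -0.035 against divergent promoter peaks, -0.12 to -0.068 against promoter-flanking peaks and 0.027 to 0.059 against peaks beyond 1 kb. The cause of these shifts was not tested. The unknown depth and the 3 replicates limit every comparison of signal.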
